A study of Homo sapiens with 6 samples.

Results

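The RAS, RAF, MEK and ERK genes described here were HRAS, NRAS, ARAF, BRAF, MAP2K1, MAP2K2 and MAPK3, 7 of the 34423 named genes on the array. Their probes were found by name, as the non-control spots that carried one of these symbols. The 7 genes were covered by 36 spots of 9 different probes, and every probe was kept. All 9 passed the filter on low signal and were among the 31807 of 50599 probes that were tested.

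Tumors were grown from BxPC-3, an established human pancreatic adenocarcinoma cell line, in female BALB/c nu/nu mice, which lack a thymus and accept human cells, aged 8 to 10 weeks at the start. Once tumors had reached about 150 mm3, mice received either the vehicle (control) or deferasirox (DFX), an iron chelator that can be given by mouth, at 200 mg/kg by gavage on alternate days, 3 doses per week for 21 days. One array was hybridized for each of 3 control tumors and 3 DFX tumors, and the comparison asks which transcripts differed between the treatments. All tumors came from 1 cell line, and host cells of the mouse were part of each tumor.

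RAS proteins are small GTPases at the inner face of the plasma membrane that are active when bound to GTP and inactive when bound to GDP. Active RAS recruits RAF kinases, RAF kinases phosphorylate the MEK kinases, and MEK kinases phosphorylate ERK, which then acts on proteins in the cytoplasm and on transcription factors in the nucleus. The pathway is known to be active in most pancreatic adenocarcinomas. Its activity is set largely by GTP loading and phosphorylation, neither of which an mRNA array measures.

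Each probe was a DNA 60-mer, so each value below is the brightness of a single short stretch of a transcript. The probe sequences from coding regions are shown, 5′ to 3′ in the sense of the mRNA, because they define which stretch of each member was measured. None of their letters is marked.
HRAS, A_23_P98183: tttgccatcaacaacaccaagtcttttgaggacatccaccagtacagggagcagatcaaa
NRAS, A_33_P3317825: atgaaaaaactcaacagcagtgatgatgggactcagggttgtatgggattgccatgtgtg
ARAF, A_23_P73511: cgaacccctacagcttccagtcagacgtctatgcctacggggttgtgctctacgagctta
BRAF, A_23_P42935: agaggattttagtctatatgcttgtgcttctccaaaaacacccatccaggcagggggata
MAP2K2, A_23_P208835: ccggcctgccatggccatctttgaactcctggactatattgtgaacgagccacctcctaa
MAPK3, A_23_P37910: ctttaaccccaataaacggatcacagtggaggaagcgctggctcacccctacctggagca

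On hg19, the build of the array annotation, the HRAS probe spanned chr11:533600-533812 on the minus strand. That is 213 bases of genome for 60 bases of probe, so the probe lay across a splice junction. The MAP2K2 probe likewise covered 1889 bases, at chr19:4095437-4097325 on the minus strand. The other probes were each contiguous. The NRAS probe printed above lay at chr1:115251165-115251224 and the second NRAS probe, A_23_P63190, at chr1:115249933-115249992, both on the minus strand. The ARAF probe printed above lay at chrX:47429320-47429379 and the second ARAF probe, A_33_P3362353, designed on a separate transcript, at chrX:47424996-47425055, both on the plus strand. The BRAF probe was at chr7:140434419-140434478 and the MAPK3 probe at chr16:30128237-30128296, both on the minus strand, and the MAP2K1 probe, A_23_P20248, was at chr15:66783224-66783283 on the plus strand. Set side by side without gaps, no pair of probes of different members matched at more than 24 of 60 bases.

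Values are log2 intensities after quantile normalization, and changes are DFX minus control on that scale. A probe's brightness depends on its own sequence, so levels are compared between tumors and never between probes. All 9 member probes were well above background on all 6 arrays and none was saturated, so that every value is a measurement and not a bound. The arrays were alike, with correlations over the tested probes of 0.983 to 0.990 within the control group, 0.984 to 0.987 within the DFX group and 0.980 to 0.988 between groups. All 6 arrays were on 1 slide, with the control arrays in row 1 and the DFX arrays in row 2, so slide row and treatment cannot be told apart. The labels do not say that the tumors of a group came from separate mice, and the p-values measure the spread between these samples only.

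One member probe of 9 passed an unadjusted p under 0.05 and it was a probe of ARAF, lower in the DFX tumors. Across all tested probes 8.41% passed that threshold, 4.95% with lower and 3.46% with higher values under DFX. No probe of any gene passed after Benjamini-Hochberg adjustment in limma, the lowest adjusted p being 0.0675, against 2675 probes at an unadjusted p under 0.05. Counted by gene, 1 of 7 members had a passing probe, against 10.8% of the 22718 tested genes with a name, 6.4% with a lower and 4.45% with a higher probe. Counts and shares over all tested genes refer to these named genes throughout. Genes with 2 tested probes, as ARAF had, passed in 15.4% of cases, and those with 1 in 8.48%. By the brightest probe of each gene 0 of 7 members passed, against 7.98% of all genes, 4.29% lower and 3.68% higher. The count among the members was thus near the share over the whole array. The DFX mean was the lower one for 8 of 9 member probes, which held for 54.4% of all tested probes. In whole tumors, fewer cells of a type and less RNA per cell cannot be told apart.

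**Figure D1:**
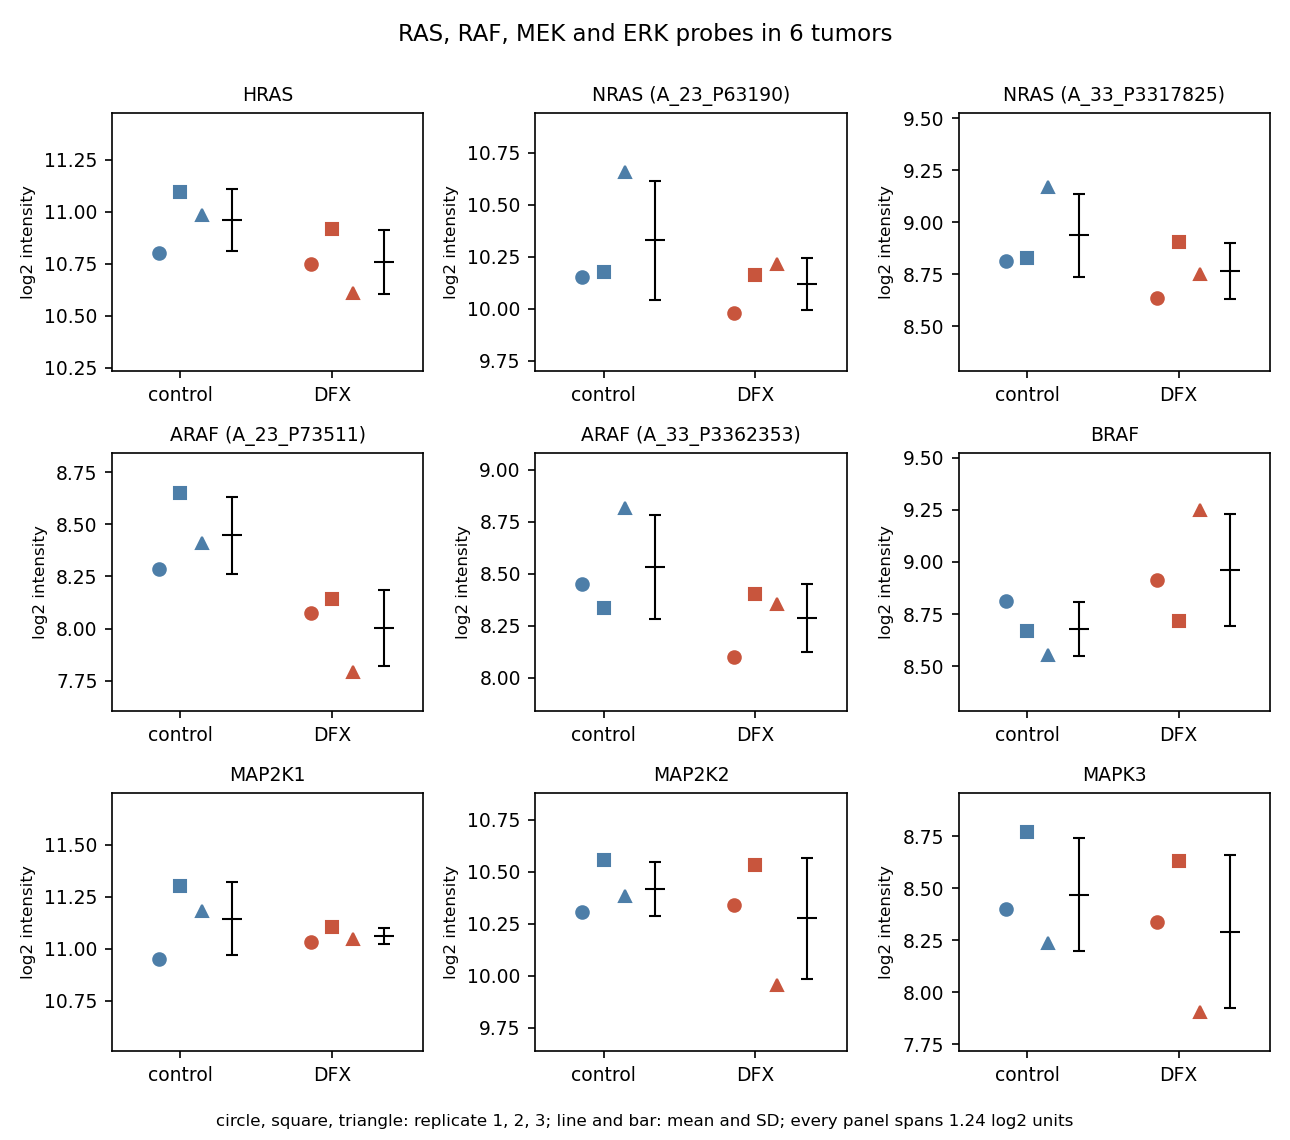
Log2 intensity of the 9 member probes in each of the 3 control and 3 DFX tumors, one panel per probe, with a symbol for each replicate and the group mean and SD beside them. ARAF A_23_P73511 is the probe whose groups do not overlap.

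HRAS and NRAS encode RAS GTPases of nearly the same sequence outside the C-terminal region, where their lipid anchors are attached. The HRAS probe read 10.80, 11.10 and 10.98 in control replicates 1, 2 and 3, and 10.75, 10.92 and 10.61 in DFX replicates 1, 2 and 3. The groups overlapped, since DFX replicate 2 exceeded control replicate 1. The mean was 10.96 ± 0.15 (SD, n = 3) in controls and 10.76 ± 0.15 (SD, n = 3) under DFX. The change of −0.20 (SE 0.14, 95% confidence interval −0.53 to 0.13) did not pass the test (limma, unadjusted p = 0.187, adjusted p = 0.710). It was −0.13 without control replicate 2 and −0.13 without DFX replicate 3.

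The brighter NRAS probe, A_23_P63190, read 10.15, 10.18 and 10.66 in controls and 9.98, 10.16 and 10.22 under DFX. Control replicate 3 was the high sample, and the remaining 5 tumors lay between 9.98 and 10.22. The second NRAS probe, A_33_P3317825, read 8.81, 8.83 and 9.17 in the controls and 8.64, 8.90 and 8.75 under DFX, again with control replicate 3 on top. The changes were −0.21 (SE 0.17, 95% confidence interval −0.63 to 0.21) and −0.17 (SE 0.15, 95% confidence interval −0.53 to 0.18), with adjusted p = 0.750 and 0.752 in limma. Without control replicate 3 they shrank to −0.05 and −0.06, and without DFX replicate 1 the second was −0.11. The difference between both probes was 1.39 ± 0.08 (SD, n = 3) in controls and 1.36 ± 0.11 (SD, n = 3) under DFX. That difference between the NRAS probes changed by −0.04 (exact two-sided permutation test, p = 0.6, adjusted over 2 probe pairs p = 0.6).

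ARAF and BRAF encode RAF kinases, the first kinases of the cascade, which RAS recruits to the membrane. The ARAF probe A_23_P73511 read 8.29, 8.65 and 8.41 in controls and 8.07, 8.14 and 7.79 under DFX. Every DFX tumor lay below every control tumor, a pattern that 15.5% of all tested probes showed in either direction, 9.15% with lower and 6.34% with higher values under DFX. The means were 8.45 ± 0.18 and 8.003 ± 0.18 (SD, n = 3 each), a change of −0.45 (SE 0.15, 95% confidence interval −0.82 to −0.07) and a fold of 0.734. ARAF fell at this probe by the unadjusted threshold (limma model over all probes, unadjusted p = 0.0262) and did not pass after adjustment over all probes (limma, adjusted p = 0.557). The members were chosen with earlier results of these tumors known, so the value is not independent evidence of a direction.

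The call was lost without control replicate 2 or without DFX replicate 3, where 1 array fewer also weakens the test. It held with any other tumor left out (limma, unadjusted p = 0.0255 to 0.0494). Without control replicate 2 the change at A_23_P73511 was −0.35 (limma, unadjusted p = 0.0822), and without DFX replicate 3 it was −0.34 (limma, unadjusted p = 0.0732). The second and brighter ARAF probe, A_33_P3362353, read 8.45, 8.34 and 8.82 in controls and 8.10, 8.40 and 8.36 under DFX. Here the groups overlapped, because DFX replicates 2 and 3 lay above control replicate 2. The change was −0.25 (SE 0.17, 95% confidence interval −0.65 to 0.16, limma adjusted p = 0.712), and it was −0.11 without control replicate 3 and −0.15 without DFX replicate 1. The order of the tumors also differed between the probes, with control replicate 2 the highest for A_23_P73511 and the lowest control for A_33_P3362353. The difference between the probes, A_33_P3362353 minus A_23_P73511, was 0.17, −0.31 and 0.41 in controls and 0.03, 0.26 and 0.56 under DFX. It changed by 0.20, less than the spread between the tumors (exact two-sided permutation test, p = 0.5, adjusted over 2 probe pairs p = 0.6). Whether the ARAF probes, designed on separate transcripts, read different forms of the mRNA was not tested.

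BRAF was the member with a higher mean under DFX. Its probe read 8.81, 8.67 and 8.55 in controls and 8.91, 8.72 and 9.25 under DFX. DFX replicate 3 was the highest sample, and DFX replicate 2 lay below control replicate 1. The means were 8.68 ± 0.13 and 8.96 ± 0.27 (SD, n = 3 each). The change of 0.28 (SE 0.17, 95% confidence interval −0.12 to 0.69), a fold of 1.22, did not pass the test (limma, unadjusted p = 0.141, adjusted p = 0.674). It ranged from 0.14 without DFX replicate 3 to 0.40 without DFX replicate 2.

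**Figure D2:**
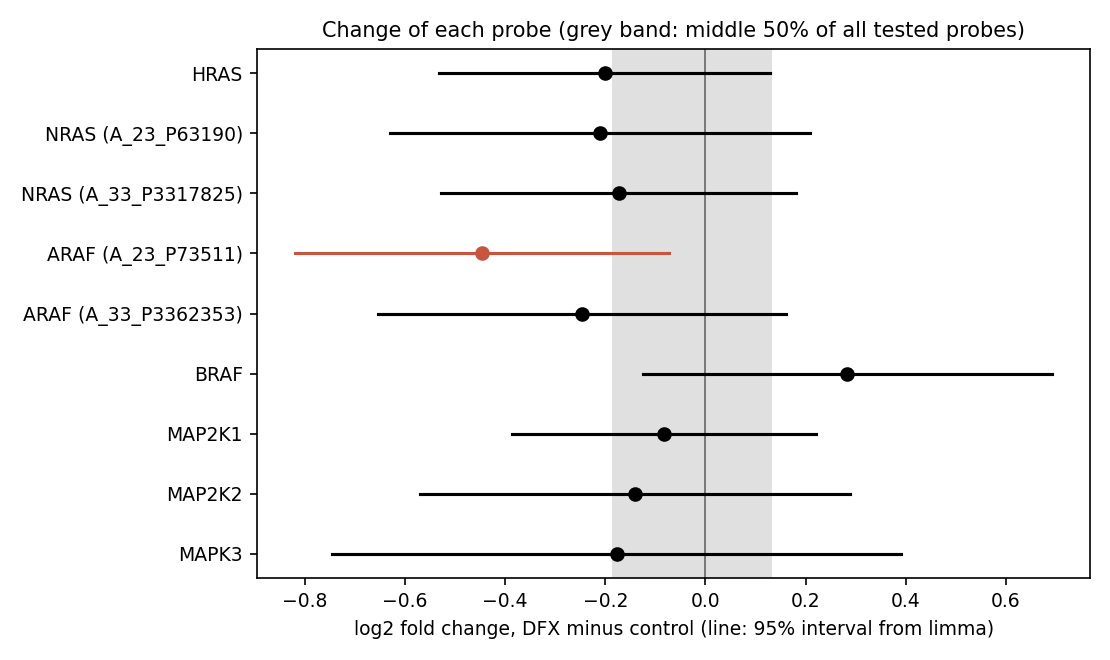
Change in log2 intensity, DFX minus control, of the 9 member probes with 95% confidence intervals from limma, over a grey band from the first quartile (−0.18) to the third (0.13) of all tested probes. The interval of ARAF A_23_P73511, −0.82 to −0.07, is the one that leaves out 0.

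MAP2K1 and MAP2K2 encode the MEK kinases, which phosphorylate ERK on a threonine and a tyrosine. MAP2K1 read 10.95, 11.30 and 11.18 in controls and 11.03, 11.10 and 11.04 under DFX. The DFX tumors were tightly grouped, with an SD of 0.04 against 0.18 in controls, and lay within the control range. The change of −0.08 (SE 0.12, 95% confidence interval −0.39 to 0.22, limma adjusted p = 0.866) was the smallest of the 9 probes with all tumors, and it was −0.0052 without control replicate 2 and −0.18 without control replicate 1. MAP2K2 read 10.31, 10.56 and 10.38 in the controls and 10.34, 10.53 and 9.96 under DFX. Only DFX replicate 3 lay outside the control range. The change was −0.14 (SE 0.18, 95% confidence interval −0.57 to 0.29, limma adjusted p = 0.836), and it was 0.02 without DFX replicate 3, −0.07 without control replicate 2 and −0.27 without DFX replicate 2.

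MAPK3 encodes the ERK kinase also called ERK1, the last kinase of the cascade. Its probe read 8.40, 8.77 and 8.24 in controls and 8.34, 8.63 and 7.90 under DFX. The groups overlapped, and DFX replicate 3 was again the lowest sample. The change was −0.18 (SE 0.23, 95% confidence interval −0.75 to 0.39, limma adjusted p = 0.846), the widest interval among the members. The MAPK3 change was 0.02 without DFX replicate 3, −0.03 without control replicate 2, −0.29 without control replicate 3 and −0.35 without DFX replicate 2.

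The same few tumors gave the extreme values of several members. Control replicate 2 was the highest tumor for 5 of 9 probes (HRAS, ARAF A_23_P73511, MAP2K1, MAP2K2 and MAPK3), which held for 14.1% of all tested probes. Control replicate 3 was the highest for 3 of 9, both NRAS probes and ARAF A_33_P3362353, against 25.3% of all probes. DFX replicate 3 was the lowest for 4 of 9 (HRAS, ARAF A_23_P73511, MAP2K2 and MAPK3), against 20.7%, while BRAF was highest there. Probe base composition was weakly related to the values of that tumor. Over the 31807 tested probes, the deviation of DFX replicate 3 from the mean of the arrays had r = −0.13 with probe GC content. The probes are not independent replicates. With each array centred by GC content, an alternative added after the data were seen, ARAF A_23_P73511 changed by −0.40 (limma, unadjusted p = 0.0214). HRAS then changed by −0.18, MAP2K2 by −0.10, MAPK3 by −0.13 and BRAF by 0.31, and none of these passed. The part of base composition in the values of the members was not tested.

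HRAS, BRAF and MAPK3 were each printed as 10 spots, which gave the error of reading a spot, but not that of labelling or hybridization, since each tumor had 1 array. The SD over the spots of one array was 0.028 to 0.060 for HRAS, 0.037 to 0.094 for BRAF and 0.043 to 0.11 for MAPK3, with 8 to 10 spots used per array. The SD between arrays of a group was larger than the median spot SD for each of the 3 genes. The remaining probes of the members were printed once, and their spot error cannot be given.

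**Figure D3:**
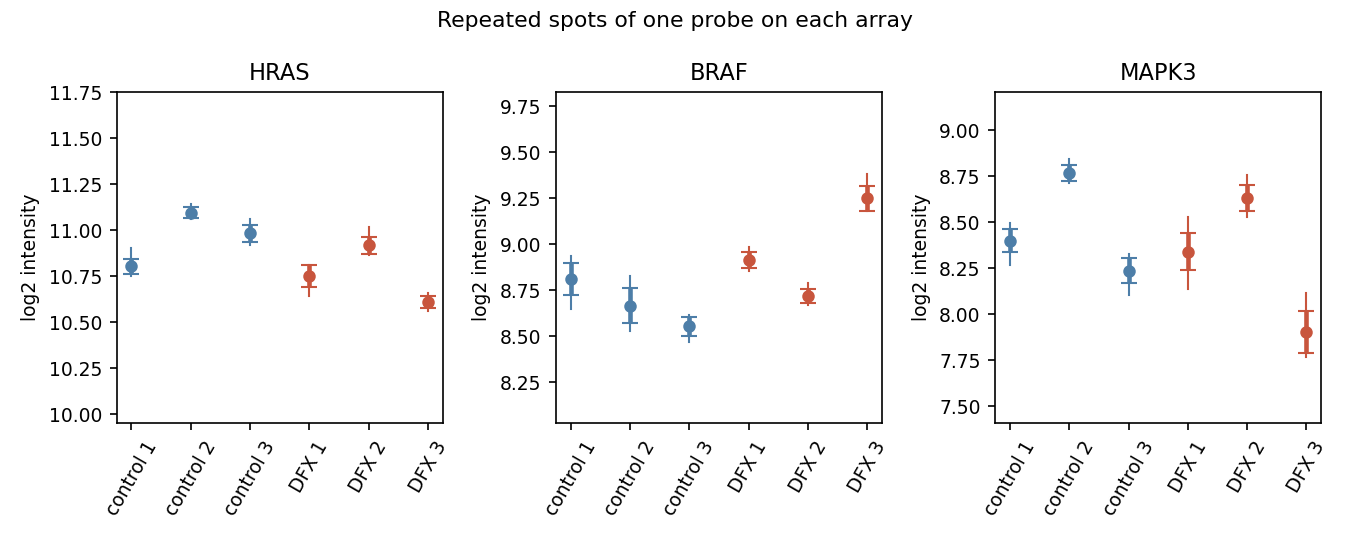
Log2 intensity of HRAS, BRAF and MAPK3 in the 6 tumors, where each point is the mean of the repeated spots on one array, the capped bar their SD and the thin line their lowest and highest spot. The SD over the spots of one array runs from 0.028 to 0.112, and the spots of some arrays of a group overlap, as for BRAF in control replicates 1 and 2.

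Columns 2 and 4 of the slide each held a control and a DFX tumor. In column 2 (control replicate 1 and DFX replicate 2), the DFX tumor differed by −0.15 for ARAF A_23_P73511, −0.05 for ARAF A_33_P3362353, 0.11 for HRAS, 0.15 for MAP2K1, 0.22 for MAP2K2, 0.23 for MAPK3 and −0.09 for BRAF. In column 4 (control replicate 3 and DFX replicate 3), the same probes differed by −0.62, −0.46, −0.37, −0.13, −0.43, −0.33 and 0.70. The NRAS probes A_23_P63190 and A_33_P3317825 differed by 0.0087 and 0.09 in column 2 and by −0.44 and −0.42 in column 4. Both ARAF probes were lower under DFX in both columns, which for A_23_P73511 follows from the lack of overlap between the groups, and the other members took opposite signs in them. With the column as a random block the ARAF change at A_23_P73511 was −0.45 (limma, unadjusted p = 0.0284).

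Related members were set against each other within each array, which removes the scaling of the array. With 3 tumors against 3 the smallest p of the exact two-sided permutation test is 0.1, so this test cannot reach 0.05. HRAS minus NRAS was 0.65, 0.92 and 0.32 in controls and 0.77, 0.75 and 0.40 under DFX, a change of 0.0093 (exact permutation test, p = 1.0, adjusted over 3 pairs p = 1). The mean difference of the RAS pair was 0.63 ± 0.30 in controls and 0.64 ± 0.21 under DFX (SD, n = 3 each). MAP2K1 minus MAP2K2 changed by 0.06 (exact permutation test, p = 0.9, adjusted p = 1). For the RAF pair, the brighter ARAF probe minus BRAF was −0.36, −0.33 and 0.26 in controls and −0.81, −0.31 and −0.89 under DFX, a change of −0.53 (exact permutation test, p = 0.3, adjusted p = 0.9). It was −0.33 without control replicate 3. With the other ARAF probe, a comparison added after the data were seen, the values were −0.52, −0.02 and −0.14 in controls and −0.84, −0.58 and −1.46 under DFX. That change was −0.73 without overlap (exact permutation test, p = 0.1, the smallest this design allows).

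**Figure D4:**
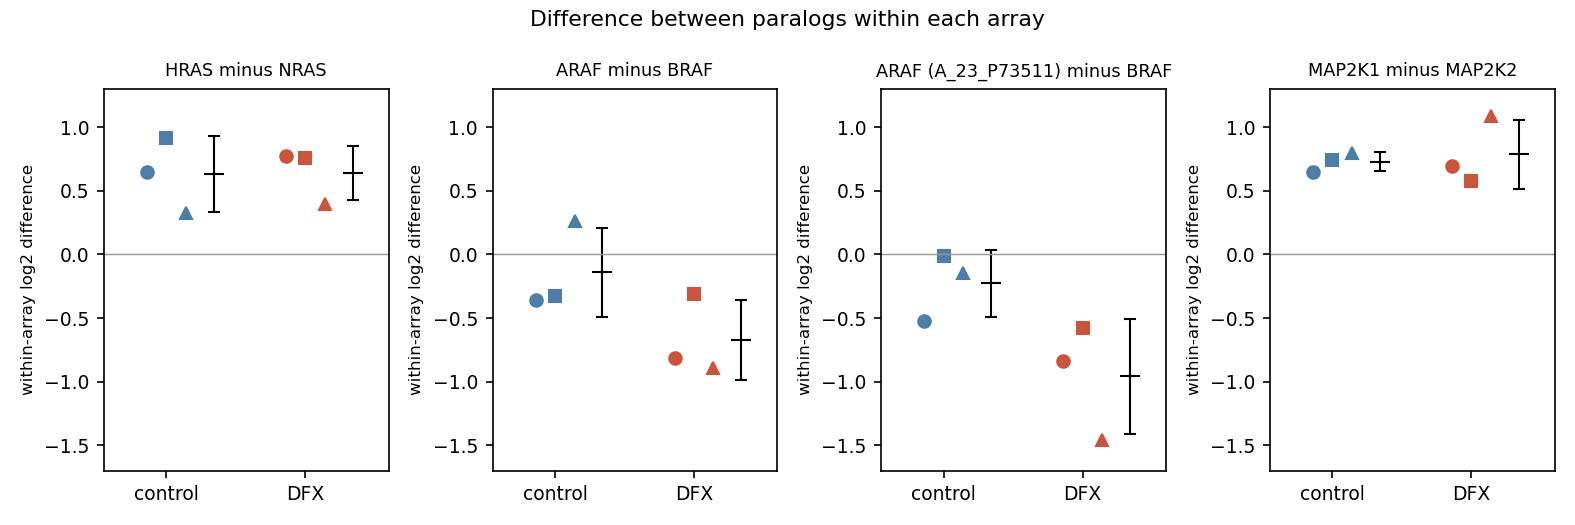
Difference in log2 intensity within each array between related members, for each control and DFX tumor, with group means and SD and a panel for each ARAF probe against BRAF. The groups overlap for the RAS pair, the MEK pair and the brighter ARAF probe, and not for ARAF A_23_P73511.

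The genes whose brightest probe followed ARAF A_23_P73511 most closely over the 6 arrays were CAP1 (r = 0.986), BUD31 (r = 0.983) and HIPK3 (r = 0.983), out of 17801 candidate genes. CAP1 encodes a protein that binds actin. The points share the arrays and the 2 groups, and the values are a description only. All 3 had lower means under DFX, with changes of −0.29, −0.24 and −0.20. That direction follows from choosing genes that track a probe lower in every DFX tumor, and is not a separate result.

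Beyond the members, 62 other genes of the pathway were followed from upstream adaptors to genes that respond to ERK, and 59 of them had a tested probe. A probe passed an unadjusted p under 0.05 in 5 of the 59 genes (8.47%), 3 lower and 2 higher under DFX, against 10.8% of all tested genes. By the brightest probe, 37 had a lower and 22 a higher mean under DFX, against 11882 lower and 10836 higher of all tested genes. The median change was −0.04 for the pathway genes against −0.01 over all tested genes. The median of the 7 members on the same scale was −0.18, with 6 lower and 1 higher.

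Upstream of RAS, 1 of 8 adaptors and exchange factors passed. It was PTPN11, which encodes the phosphatase SHP2 that relays receptor signals to RAS. Its probe A_23_P105436 read 7.41, 7.54 and 7.57 in controls and 8.16, 7.86 and 7.98 under DFX, and all DFX tumors lay above all controls. This was a rise of 0.49 (SE 0.12, limma, unadjusted p = 0.00722, adjusted p = 0.514). The probes of PTPN11 disagreed, since the brightest, A_23_P99027, changed by −0.13 and a further probe by 0.09, and neither passed. The rise stayed at 0.41 to 0.56 with any 1 tumor left out (limma, unadjusted p = 0.00862 to 0.0290). Of the other adaptors, GRB2, which links receptors to SOS exchange factors, changed by −0.06, and SOS1 by −0.06.

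None of 8 GTPase-activating proteins, which switch RAS off by speeding GTP hydrolysis, passed. RASA1 changed by −0.19 (limma, unadjusted p = 0.0979) and NF1 by −0.0012. Among the 7 genes of RAS lipid processing, 2 passed, both lower. LYPLA1, a thioesterase that removes palmitate from proteins, read 11.49, 11.42 and 11.56 in controls and 11.05, 11.27 and 10.99 under DFX at probe A_23_P214091, a fall of 0.39 (SE 0.12, limma, unadjusted p = 0.0162, adjusted p = 0.529). Its brightest probe changed by −0.09 and did not pass. PDE6D, which carries farnesylated proteins such as RAS through the cytoplasm, read 8.70, 8.49 and 8.81 in controls and 8.30, 8.38 and 8.29 under DFX, a fall of 0.34 (SE 0.12, limma, unadjusted p = 0.0304, adjusted p = 0.570). The DFX tumors lay below the controls for both genes. LYPLA1 missed the threshold without DFX replicate 1, at −0.36 (limma, unadjusted p = 0.0584). PDE6D missed it without control replicate 1 or 3 or any one DFX tumor, at −0.37 to −0.27 (limma, unadjusted p = 0.0543 to 0.0856), and passed without control replicate 2. The farnesyltransferase subunits FNTA and FNTB changed by 0.02 and 0.04, and neither passed.

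Both related RAS GTPases tested, RRAS and RRAS2, changed by −0.17 and −0.05 and did not pass. None of 6 scaffolds and RAF regulators passed. SHOC2, a scaffold that helps to activate RAF, changed by −0.23, and LAMTOR3, a scaffold for MEK and ERK on late endosomes, by −0.28.

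Of the genes that restrain the pathway, 1 of 5 SPRY and SPRED inhibitors passed. SPRED2, which limits RAF activation, read 7.99, 8.003 and 8.13 in controls and 7.67, 7.78 and 7.75 under DFX, a fall of 0.31 (SE 0.10, limma, unadjusted p = 0.0225, adjusted p = 0.553). Every DFX tumor was below every control tumor. SPRED2 missed the threshold without control replicate 3, at −0.26 (limma, unadjusted p = 0.0515), and without DFX replicate 1, at −0.28 (limma, unadjusted p = 0.0844). SPRY1 and SPRY2 changed by 0.27 and −0.23 and did not pass (limma, unadjusted p = 0.0579 and 0.0686). None of 4 ERK phosphatases passed. DUSP6, a phosphatase of ERK whose own transcription follows ERK activity, changed by −0.03 (95% confidence interval −0.35 to 0.30), and DUSP4 by 0.05.

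Downstream of ERK, none of 5 kinases activated by it passed, with MKNK2 at 0.28 and RPS6KA2 at 0.17. Of 14 ETS factors and ERK-responsive genes 1 passed. ELK4, an ETS transcription factor, read 8.58, 8.76 and 8.42 in controls and 9.07, 8.84 and 9.10 under DFX at probe A_33_P3365010, a rise of 0.42 (SE 0.14, limma, unadjusted p = 0.0237, adjusted p = 0.554). Its second probe changed by 0.06 and did not pass. The call was lost without control replicate 1 or 3 or DFX replicate 1 or 3, at 0.33 to 0.41 (limma, unadjusted p = 0.0582 to 0.0750). EGR1, an early gene induced by ERK signaling, changed by −0.23 (95% confidence interval −0.59 to 0.13), and FOSL1 by −0.02 (95% confidence interval −0.96 to 0.92). Over the 14 genes of this role, the changes by the brightest probe ran from −0.36 to 0.42, with a median of −0.04.

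**Figure D5:**
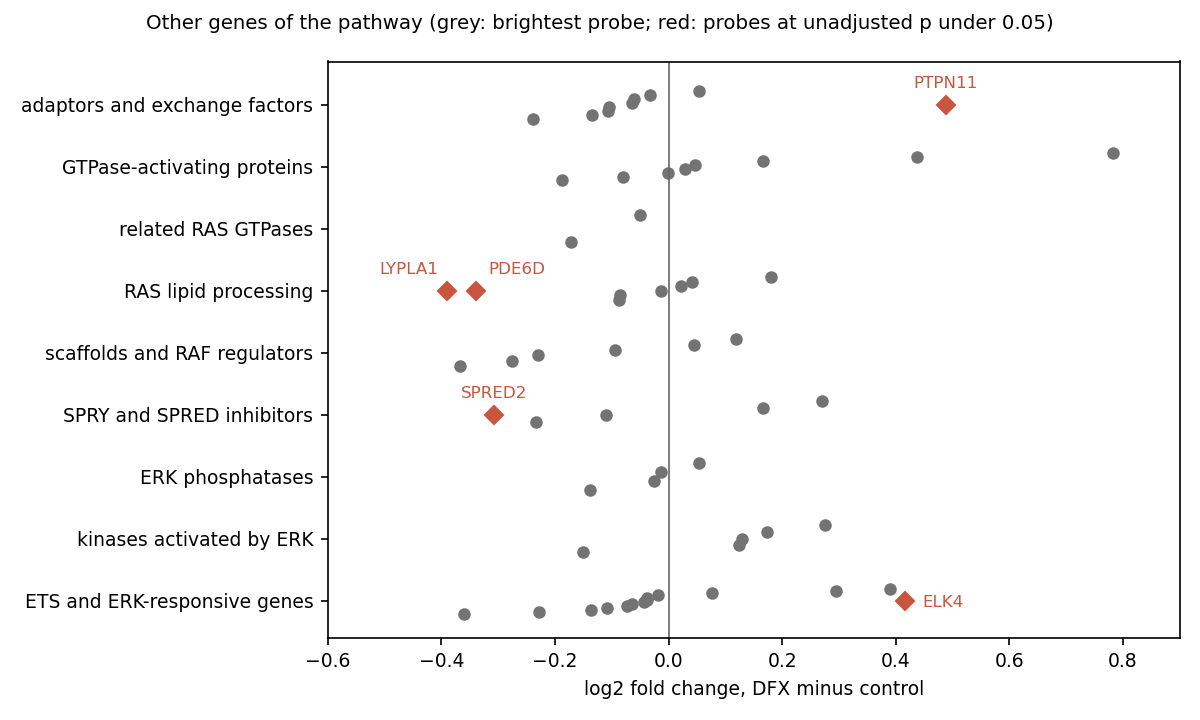
Change in log2 intensity, DFX minus control, of the tested pathway genes by role, with the brightest probe in grey and each probe at an unadjusted p under 0.05 in red. The 5 genes with a red probe are spread over 4 roles, with PTPN11 and ELK4 higher and LYPLA1, PDE6D and SPRED2 lower.

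The makeup of the tumors was read from lists of marker genes. All 10 markers of carcinoma epithelium were well above background on all arrays, and their summed linear intensity was 666134 to 688692 in controls and 702265 to 712464 under DFX. Of these 10 genes 3 were higher and 0 lower at an unadjusted p under 0.05, against 10.8% of all tested genes in either direction, with 9 of 10 means higher under DFX and a median change of 0.27. The summed red blood cell markers were at 6739 to 8023 in controls and 3122 to 3287 under DFX, 3 of 5 tested genes being lower at an unadjusted p under 0.05. By the brightest probe 2 of these 5 passed, and 3 had a lower and 2 a higher mean under DFX, the highest change being 0.08. Fibroblast markers summed to 12374 to 20156 and 11016 to 13724, leukocyte markers to 2882 to 4570 and 3078 to 3411, and endothelial markers to 687.5 to 1084 and 664.8 to 750.6, so these ranges overlapped. Of the fibroblast markers 2 of 7 tested were lower and 1 higher, of the endothelial 1 of 6 lower and 1 higher, and of the leukocyte 0 of 8. PDGFRB, POSTN, CSF1R, LYZ and KDR were well above background on no array, and the probes were designed on human sequence. The epithelial and red blood cell sums did not overlap between the groups, as was the case for ARAF A_23_P73511 and for 15.5% of all tested probes. No such share is given for sums of markers. The part of tumor makeup in the values of the members was not tested.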

How the data were processed

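RNA from 6 BxPC-3 xenograft tumors (3 control, 3 DFX) was hybridized to 1-colour Agilent 60-mer arrays. The authors deposited scanner intensities on a linear scale, which were background-subtracted but not normalized between arrays, with a p-value of each spot against its background and quality flags. The file headers name Agilent Feature Extraction 10.7.1.1, and the submitters' processing notes 9.5.1.1. A deposited table of the authors' normalized intensities served as an alternative. All its columns were matched to samples.

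The processed signal of 58717 non-control spots was log2-transformed and quantile-normalized, 1398 outlier spot values were dropped, and spots were averaged per probe. Probes detected above background (p-value under 0.05) on each of the 6 arrays entered lmFit and eBayes (limma 3.58.1, R 4.3.3; prior degrees of freedom 2.04), with Benjamini-Hochberg adjustment over 31807 probes. The study's methods name the Kruskal-Wallis H test for its in vivo work and do not say which test was run on the arrays or whether p was adjusted. That test was an alternative. A gene passed when any of its probes passed. The procedure was tested on simulated data. Quantile normalization gives every array the same distribution, so that a shift of all transcripts in one direction would not be seen.

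Named were all members with all probes, each pathway gene with a passing probe, at most 2 others per role by the brightest probe, and the 3 genes most like a passing member probe. The members and lists were chosen with earlier results of these data known. Other paralogs of the family are not analysed here. Gene names and positions are those of the array design on hg19, and exon annotation of that build was not used here. Alternatives covered scaling, background, signal column, filters, outliers, the authors' values, the test, blocks, array weights, GC content and leaving out each tumor. The number of arrays limits the precision.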

Additional observations from a re-analysis of the deposited data

How the results depend on the processing

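No alternative scaling, background correction, filter or test changed the direction of a member probe, and ARAF A_23_P73511 stayed at an unadjusted p under 0.05 in 19 of 21 alternatives. The exceptions among all alternatives came from leaving out 1 tumor: the member probes and member genes that passed ranged from 0 to 1, with 0 without control replicate 2 and without DFX replicate 3, and the changes of MAP2K2 (−0.27 to 0.019) and MAPK3 (−0.35 to 0.017) turned positive without DFX replicate 3. By the brightest probe only, 0 member genes and 3 pathway genes passed. Pathway genes that passed, 5 in the report, numbered 8 with normexp correction or the raw mean signal, 9 without the filter on dim probes or with array weights, 11 without variance moderation, 12 by the Kruskal-Wallis H test, and 2 to 8 with 1 tumor left out (2 without DFX replicate 1, 8 without control replicate 1). The change in HRAS minus NRAS was −0.0096 with scaling to the 75th percentile or median, −0.00090 with the authors' values, −0.0093 with all probes averaged, and −0.14 to 0.15 with 1 tumor left out. With 1 tumor left out, ARAF minus BRAF ranged from −0.71 to −0.33, MAP2K1 minus MAP2K2 from −0.094 to 0.16, the NRAS probe difference from −0.093 to 0.012, and the ARAF probe difference from −0.00054 to 0.36. The cause of these shifts was not tested. Of all passing probes, 58.8% were lower under DFX, 42.6% with scaling to the 75th percentile and 71.8% with median scaling, which moved the median of all probes to −0.10. Probes that passed numbered 4927 by the Kruskal-Wallis H test, which passes whenever 3 against 3 do not overlap, against 2675.

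The replicate numbers did not pair the tumors (correlations of same-numbered deviations 0.027, 0.027 and 0.016). With the replicate block ARAF A_23_P73511 changed by −0.45 (limma, unadjusted p = 0.0340), 2419 probes passed, and 2 pathway genes passed, of which PTPN11 was among the 5 of the report.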
